A study of Mus musculus with 43 samples.

Results

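The genes described here are 10 imprinted genes, Meg3, Rian, Mirg, Peg3, Snrpn, Snhg14, Kcnq1ot1, Igf2, H19 and Plagl1, taken by symbol from the 54532 genes of the count table. They were followed in RNA of sorted brain endothelial cells (EC) from mice aged 2 months, in 43 libraries of 7 inbred strains with no transgene or treatment named in the labels. EC were gated as negative for CD45 and CD11b and positive for CD31. The wild-derived strains were CAST/EiJ (n = 6) and WSB/EiJ (n = 6), and the long-inbred strains were 129S1/SvImJ (n = 9), A/J (n = 5), C57BL/6J (n = 6), DBA/2J (n = 5) and NOD/ShiLtJ (n = 6). Of the libraries, 21 came from cortex and 22 from hippocampus, 16 from female and 27 from male mice. The titles also carry the tag high or low, which the study does not define, and 15 of 16 female but 14 of 27 male libraries are titled high. Titles do not name the mouse, so libraries were treated as independent, although some may share an animal, and p-values then measure only the spread between libraries.

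An imprinted gene is expressed mainly from the copy inherited from 1 parent, and the choice is held by DNA methylation laid down at control regions in the germ line. Many imprinted genes lie in clusters under a shared control region, and many are expressed in neurons and in fetal growth. Meg3, Rian and Mirg are maternally expressed noncoding RNAs of the Dlk1-Dio3 cluster, and Rian and Mirg are hosts of small nucleolar RNAs and miRNAs. Peg3 is a paternally expressed zinc finger gene, and Plagl1 encodes a paternally expressed zinc finger transcription factor. Snrpn, an mRNA for a splicing protein, and Snhg14, a long noncoding RNA that runs antisense to Ube3a, are paternally expressed neighbours. Kcnq1ot1 is a paternally expressed noncoding RNA antisense to Kcnq1. Igf2 encodes a fetal growth factor and H19 a noncoding RNA beside it, expressed from opposite parental copies. Reads were counted per gene without regard to parental copy, so nothing below bears on which copy was expressed.

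In the mm10 build (GENCODE release M21), Meg3 (ENSMUSG00000021268) spans chr12:109541001-109571726, Rian chr12:109603940-109661716 and Mirg chr12:109729764-109749460, all on the plus strand. On chromosome 7, all on the minus strand, lie Peg3 (chr7:6703892-6730431), Snhg14 (chr7:59307924-59975759), Snrpn (chr7:59982495-60140219), H19 (chr7:142575529-142578143), Igf2 (chr7:142650766-142666816) and Kcnq1ot1 (ENSMUSG00000101609, chr7:143203458-143296549). Plagl1 spans chr10:13060504-13131694 on the plus strand. Exons are shared with other annotated genes over 64.6% of the exon length of Igf2, nearly all with Gm49394, and over 34.1% of Snrpn, most with Gm38393 and Snurf. Gm49394 and Snurf are listed at 0 in every library, and how this sharing affects the counts of Igf2 and Snrpn was not tested. Whether reads were assigned by strand is not given in the sources used here, which leaves counts of Meg3, Kcnq1ot1 and Snhg14 uncertain where their exons overlap the opposite-strand genes Gm26906, Kcnq1 and Ube3a.

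RefSeq's GRCm38.p6 table held promoters of 9 of the 10 genes, each 300 bases from 250 before to 50 after the start. CG dinucleotides, the letters at which imprints are methylated, are in capitals, and the promoters shown are those of Meg3 and Kcnq1ot1, which passed the tests below, and of Peg3, which went with neuronal markers. Each is printed 5′ to 3′ on the strand of its gene.
Meg3, chr12:109540746-109541045, plus strand: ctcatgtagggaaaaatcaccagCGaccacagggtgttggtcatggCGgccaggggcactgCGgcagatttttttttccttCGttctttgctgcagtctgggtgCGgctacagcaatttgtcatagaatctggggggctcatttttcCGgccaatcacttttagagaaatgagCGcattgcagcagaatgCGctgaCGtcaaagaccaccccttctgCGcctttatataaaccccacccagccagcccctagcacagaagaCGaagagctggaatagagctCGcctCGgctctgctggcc
Kcnq1ot1, chr7:143296498-143296797, minus strand: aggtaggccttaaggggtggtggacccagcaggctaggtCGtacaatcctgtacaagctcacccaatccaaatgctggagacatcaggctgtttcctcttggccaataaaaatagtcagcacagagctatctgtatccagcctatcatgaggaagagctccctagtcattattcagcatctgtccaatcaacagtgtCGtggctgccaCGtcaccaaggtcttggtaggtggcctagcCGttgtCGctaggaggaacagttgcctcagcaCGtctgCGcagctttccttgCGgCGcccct
Peg3, chr7:6730370-6730669, minus strand: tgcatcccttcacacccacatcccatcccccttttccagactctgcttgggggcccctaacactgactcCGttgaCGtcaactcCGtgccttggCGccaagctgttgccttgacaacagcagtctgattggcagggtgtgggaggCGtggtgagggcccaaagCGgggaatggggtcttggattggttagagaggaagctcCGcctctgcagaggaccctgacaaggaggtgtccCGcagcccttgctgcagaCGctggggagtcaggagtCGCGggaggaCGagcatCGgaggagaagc
The printed promoters of Meg3 and Peg3 each hold 13 CG dinucleotides and that of Kcnq1ot1 holds 9, while a second Meg3 promoter in the table (chr12:109545148-109545447) holds 1, against a median of 7 over the 32851 promoters of the table. Rian also passed 1 test below and went with neuronal markers. Its only promoter in the table (chr12:109603695-109603994), not printed, holds 0. The hexamer TGCCGC, the core motif bound by the imprint-keeping zinc finger protein ZFP57 when methylated, was searched on both strands. It occurs in 4 of the 16 promoters listed for these genes, where 1 window is listed for both Snrpn and Snhg14, and in 11.6% of all promoters in the table. One match is in the printed Meg3 promoter (from base 61, on the opposite strand), and the second Meg3 promoter has none. These matches describe the letters in these windows, with no measure of binding.

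Most of these genes were detected in EC libraries, and H19 was not. Levels are given as CPM, the count relative to the library's total after scaling by trimmed means (TMM). Differences are fitted on the log2 scale and called at an adjusted p under 0.05. On simulated data the test made more false calls than its nominal share in several comparisons, most for strain. Calls near this threshold are thus less certain than their adjusted p states. Per kb of exon, Meg3 had the highest median level over the 43 libraries, 11.2 CPM per kb (4.42 to 153), followed by Snrpn with 6.06 (0 to 38.5) and Peg3 with 3.87 (1.07 to 19.8). Median levels per kb were 1.34 for Igf2, 0.919 for Rian, 0.619 for Kcnq1ot1, 0.376 for Snhg14, 0.270 for Plagl1 and 0 for Mirg, and ranges of neighbours in this order overlapped throughout. The length used was that of all exons, including the 64.6% of Igf2 and 34.1% of Snrpn shared with other genes. Levels per kb of these 2 genes may thus be too low, and their places in this order are uncertain. Not scaled by length, Meg3 ran from 79.9 to 2760 CPM with a median of 202, a 34.5-fold range between libraries. Rian ran from 1.46 to 138 CPM (median 16.8), Peg3 from 14.2 to 264 CPM (median 51.5) and Kcnq1ot1 from 9.48 to 203 CPM (median 57.6). These 4 genes had counts in every library. Sparse genes were Mirg, with no count in 24 libraries and at most 13.7 CPM, Plagl1, with none in 10 and at most 20.3 CPM, Igf2, with none in 5, Snrpn, with none in 3, and Snhg14, with none in 2. H19 had 0 of 546865410 counts over all libraries, which allows a level of up to 0.00549 CPM over all of them, or of 0.0537 to 1.84 CPM within a library at the limit of 3 counts (counting error only).

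**Figure D1:**
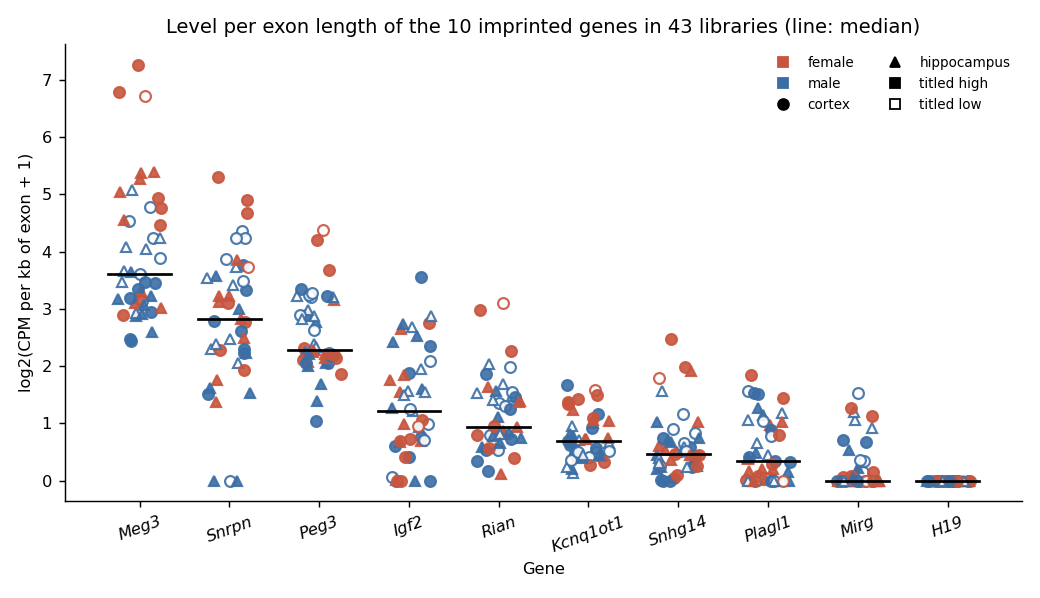
Level of each imprinted gene in each of 43 libraries, as log2(CPM per kb of exon + 1), with a line at the median. Colour gives the sex, shape the region and fill the title tag. Exon length includes parts shared with other genes, which are largest in Igf2 and Snrpn. Meg3 has the highest median, and all 43 points of H19 are at 0.

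Libraries held between 1626534 and 49372356 counts, with a median of 21242058 in female and 5257353 in male mice. The share of counts on Gm23935, Gm42418 and Gm26917, taken as rRNA-like, was 1.59% to 12.1% in female and 12.97% to 29.3% in male libraries, so the sexes did not overlap. Among female libraries it was 1.59% to 4.05% in the 11 of 129S1/SvImJ, C57BL/6J, DBA/2J and WSB/EiJ, and 9.66% to 12.1% in the 5 of NOD/ShiLtJ, CAST/EiJ and A/J. Endothelial markers were abundant, with all 20 endothelial markers at a median above 1 CPM and a mean log2(CPM + 1) of 9.60 ± 0.35 (SD, n = 43). Markers of other brain cells were also present: the mean over 10 neuronal markers was 4.76 ± 0.89 (SD, n = 43), all 10 with a median above 1 CPM, although Tubb3 was at 0 in 9 libraries, Gad2 in 7, Gad1 in 3 and Rbfox3 in 1. In such bulk libraries, fewer cells of a type and less RNA per cell cannot be told apart.

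Meg3 and Kcnq1ot1 were higher in female than in male libraries. Mean Meg3 was higher in female libraries in 4 of 7 strains and mean Kcnq1ot1 in 5 of 7. Meg3 ran from 116 to 2760 CPM in female libraries (median 504, n = 16) and from 79.9 to 593 CPM in male libraries (median 180, n = 27). The 6 highest values were female, a male A/J library followed with 593 CPM, and the ranges overlapped. Its fitted difference, female minus male, was 1.81 on the log2 scale (SE 0.26, adjusted p = 4.12e-07 by edgeR's quasi-likelihood test), or 3.50-fold. Kcnq1ot1 ran from 18.7 to 187 CPM in female (median 100.2) and from 9.48 to 203 CPM in male libraries (median 39.6), with a fitted difference of 0.91 (SE 0.25, adjusted p = 0.0193). These were 2 of the 9 genes tested, beside 2.85% of all genes called in this comparison (2.56% higher in female mice). The other 7 did not pass the test: log2 differences were 1.10 (SE 0.44) for Snhg14, 0.61 (SE 0.42) for Snrpn, 0.53 (SE 0.35) for Rian and 0.23 (SE 0.24) for Peg3. They were -0.72 (SE 0.55) for Igf2, -0.63 (SE 1.31) for Mirg and -0.21 (SE 0.79) for Plagl1. The median over the 9 was 0.53, against -0.12 over all genes tested.

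Meg3 was higher in the female libraries with a low rRNA-like share than in those with a high share, without overlap. In the 11 female libraries of 129S1/SvImJ, C57BL/6J, DBA/2J and WSB/EiJ, whose share was at most 4.05%, Meg3 ran from 381 to 2760 CPM (median 676), above all 15 male libraries of these strains (79.9 to 279 CPM). In the 5 female libraries with a share of 9.66% or more, Meg3 was 160 CPM in A/J hippocampus, 144 and 129 CPM in CAST/EiJ cortex and hippocampus, and 116 and 138 CPM in NOD/ShiLtJ cortex and hippocampus. These values lay within the range of male libraries of those 3 strains (82.7 to 593 CPM). Kcnq1ot1 ran from 60.6 to 187 CPM in the 11 and from 18.7 to 63.5 CPM in the 5. The summed level of the 10 neuronal markers was 294 to 2076 CPM in the 11 and 259 to 511 CPM in the 5, with 10 of 10 at a higher median in the 11, and the part of neuronal RNA in the difference between these female libraries was not tested. Between the sexes, 1 of 10 neuronal markers had a higher median in female than in male libraries. The median of the summed level was 491 CPM in female and 681 CPM in male libraries. Fitted within each set of strains, a division chosen after seeing the data, the difference in Meg3 was 2.65 (SE 0.24) in the first and -0.99 (SE 0.32) in the second. By edgeR's adjusted p, 9.97e-12 and 0.469, only the first passed, and the difference between these sets was not tested. With the share as a covariate, Meg3 came to -0.17 (SE 0.58) and Kcnq1ot1 to -0.60 (SE 0.46). Adjusted p for Meg3 ran from 9.97e-12 to 0.970 over 19 alternatives, of which 16 kept the call, and without 129S1/SvImJ the difference was 0.66 and not called. Kcnq1ot1 kept its call in 9 of 19 alternatives and lost it under DESeq2's size factors, which move the median gene by -0.108. Because sex and the share do not overlap, they cannot be told apart here. Among female libraries each strain lay wholly below or wholly above 5%, so strain and the share cannot be told apart there either.

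**Figure D2:**
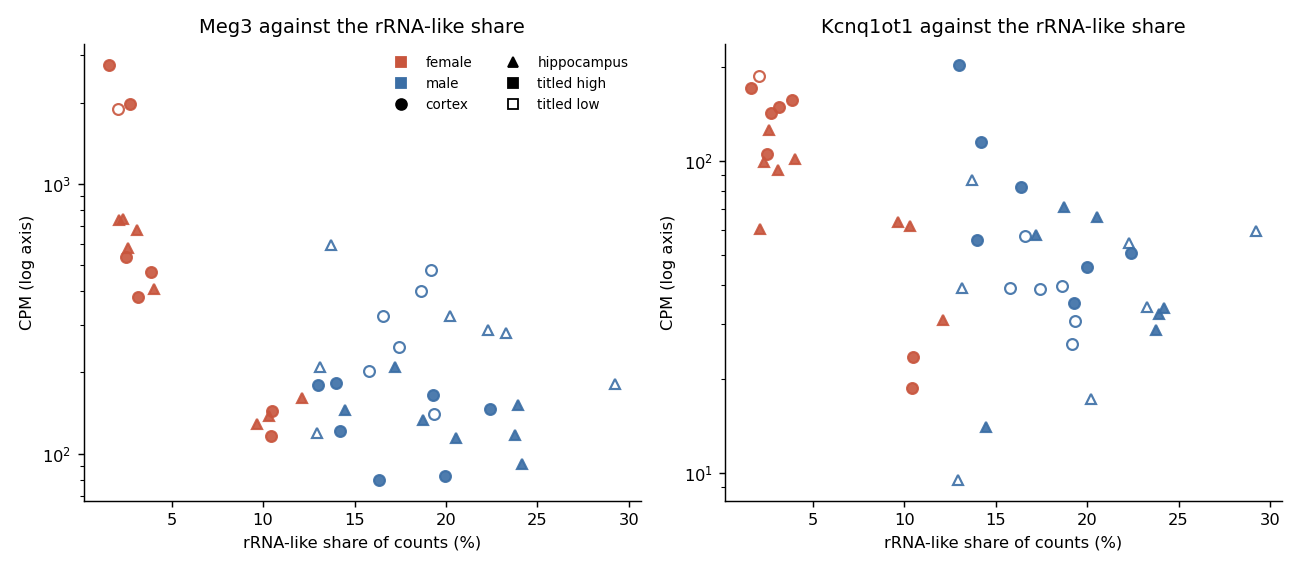
Level of Meg3 (left) and Kcnq1ot1 (right) in CPM on a log axis against the percentage of counts on rRNA-like genes, 1 point per library. The 11 female libraries at or below 4.05% hold Meg3 values of 381 CPM or more, while the 5 female libraries between 9.66% and 12.1% lie between 116 and 160 CPM.

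Within the sexes, where a pooled value would join separate clusters, Meg3 fell with the share in the 11 female libraries below 5% (Pearson r = -0.70, Spearman rho = -0.77, permutation p = 0.0173 and 0.00733, adjusted over 22 correlations to 0.0476 and 0.0538). Leaving out the 2 libraries with the most extreme shares relative to the median changed r to -0.65. Of these 11 libraries 6 were of 129S1/SvImJ, at shares of 1.59% to 2.74%. Those of WSB/EiJ had the highest shares, 3.87% and 4.05%, so this relation does not separate the share from strain. In the same 11 libraries Meg3 rose with the neuronal mean (r = 0.82, rho = 0.68, permutation p = 0.00183 and 0.0252, adjusted 0.0134 and 0.0924, with r = 0.62 once the 2 libraries farthest from the median neuronal mean were dropped), and both measures were not tested together. With the share in male libraries (n = 27) Pearson's value was -0.12 and Spearman's -0.15, with permutation p of 0.557 and 0.452 (adjusted 0.82 and 0.76). Kcnq1ot1 passed the test with the share in neither set, with r = -0.04 in the 11 female libraries (permutation p = 0.91) and r = -0.13 in the male libraries (permutation p = 0.522). In the male libraries r was -0.41 once the 2 farthest were dropped. Over all 16 female libraries, which join those below and above 5%, r was -0.84 (adjusted permutation p = 0.00154). There rho was -0.66 (adjusted permutation p = 0.0198).

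Among strains, Meg3 and Kcnq1ot1 passed the test, and both were highest in 129S1/SvImJ, from which 6 of 9 libraries were female. Median Meg3 was 577 CPM in 129S1/SvImJ (133 to 2760), 230 in C57BL/6J (79.9 to 676), 209 in A/J (160 to 593), 193 in WSB/EiJ (91.4 to 471), 146 in CAST/EiJ (117 to 481), 145 in NOD/ShiLtJ (82.7 to 400.1) and 140 in DBA/2J (119 to 739). All neighbours in this order overlapped. Median Kcnq1ot1 was 126 CPM in 129S1/SvImJ (33.9 to 203), 74.5 in C57BL/6J, 57.7 in WSB/EiJ, 57.6 in A/J, 42.7 in NOD/ShiLtJ, 30.6 in DBA/2J and 27.2 in CAST/EiJ (17.2 to 63.5). The F test over 7 strains gave an adjusted p of 3.48e-05 for Meg3 and 0.0184 for Kcnq1ot1 (edgeR). These were 2 of 9 genes tested, beside 2.68% of all genes. The other 7 did not pass, with Rian nearest (adjusted p = 0.0817), and DESeq2 called 3. Both calls ended, by edgeR, in male libraries only (adjusted p = 0.239 for Meg3 and 0.558 for Kcnq1ot1), with sex and region as covariates (0.0688 and 0.143) and with the rRNA-like share as a covariate (0.254 and 0.569). Over 20 alternatives the adjusted p ran from 6.22e-47 to 0.254 for Meg3 and from 5.69e-04 to 0.569 for Kcnq1ot1. The excess of false calls on simulated data was largest for strain. The call of Kcnq1ot1, nearer the threshold than that of Meg3, is therefore uncertain.

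Set against the mean of the other 6 strains, 129S1/SvImJ was higher in Meg3 by 2.02 on the log2 scale (SE 0.28, adjusted p = 5.59e-07 by edgeR), in Rian by 1.29 (SE 0.36, adjusted p = 0.0427) and in Kcnq1ot1 by 1.18 (SE 0.26, adjusted p = 0.00636). This is 3 of 9 genes tested, beside 1.46% of all genes called (1.18% higher). The other 6 genes did not pass, and their fitted differences lay between 0.70 and 1.66, that of Snhg14 being 1.66 (SE 0.47). The median over the 9 was 1.29, against 0.10 over all genes tested. In the other 6 contrasts of this kind, 0 of the 9 passed by edgeR, beside 0.254% of all genes called in A/J, 0.529% in C57BL/6J, 1.35% in CAST/EiJ, 0.192% in DBA/2J, 0.185% in NOD/ShiLtJ and 2.41% in WSB/EiJ. By unadjusted p under 0.05 there was 1 gene in each of C57BL/6J, CAST/EiJ and DBA/2J and 0 in the other strains. DESeq2 called 0 in these contrasts. Given the false calls on simulated data, the call of Rian in 129S1/SvImJ, close to the threshold, is uncertain.

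Within 129S1/SvImJ, the female libraries were above the male in Meg3, while Rian and Kcnq1ot1 overlapped between the sexes. Meg3 was 1894, 1981 and 2760 CPM in 3 female cortex libraries, 536 in the fourth, and 577 and 733 CPM in female hippocampus, against 133, 180 and 279 CPM in the male libraries. Rian was 8.97 to 138 CPM in the 6 female and 10.6 to 13.6 CPM in the 3 male libraries. Kcnq1ot1 was 60.6 to 187 CPM in the female and 33.9, 71.4 and 203 CPM in the male libraries. In male libraries only, the 129S1/SvImJ difference was -0.02 (SE 0.31) for Meg3, -0.88 (SE 0.61) for Rian and 1.22 (SE 0.38) for Kcnq1ot1, and none passed the adjusted test. The 3 libraries highest in Meg3 also had neuronal means of 6.17, 5.95 and 6.74, against a median of 4.57 over all libraries. Over the 10 neuronal markers the summed level was 432 to 2076 CPM in 129S1/SvImJ and 259 to 1710 CPM in the other strains, and 6 of 10 had a higher median in 129S1/SvImJ. With the neuronal mean as a covariate, the difference was 1.37 (SE 0.28) for Meg3, still called, and 0.60 (SE 0.33) for Rian, no longer called. With sex and region as covariates Meg3 kept its call at 1.23 (SE 0.30, adjusted p = 0.0283 by edgeR), while Rian at 1.34 (SE 0.48, adjusted p = 0.279) and Kcnq1ot1 at 0.87 (SE 0.26, adjusted p = 0.130) lost theirs. With the rRNA-like share as the covariate the difference was 1.06 (SE 0.31) for Meg3 and 0.78 (SE 0.28) for Kcnq1ot1, neither called. Over 20 alternatives the adjusted p ran from 1.11e-49 to 0.99999 for Meg3 and from 0.00692 to 0.633 for Rian, whose call also ended when any of 7 single A/J or DBA/2J libraries was left out.

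**Figure D3:**
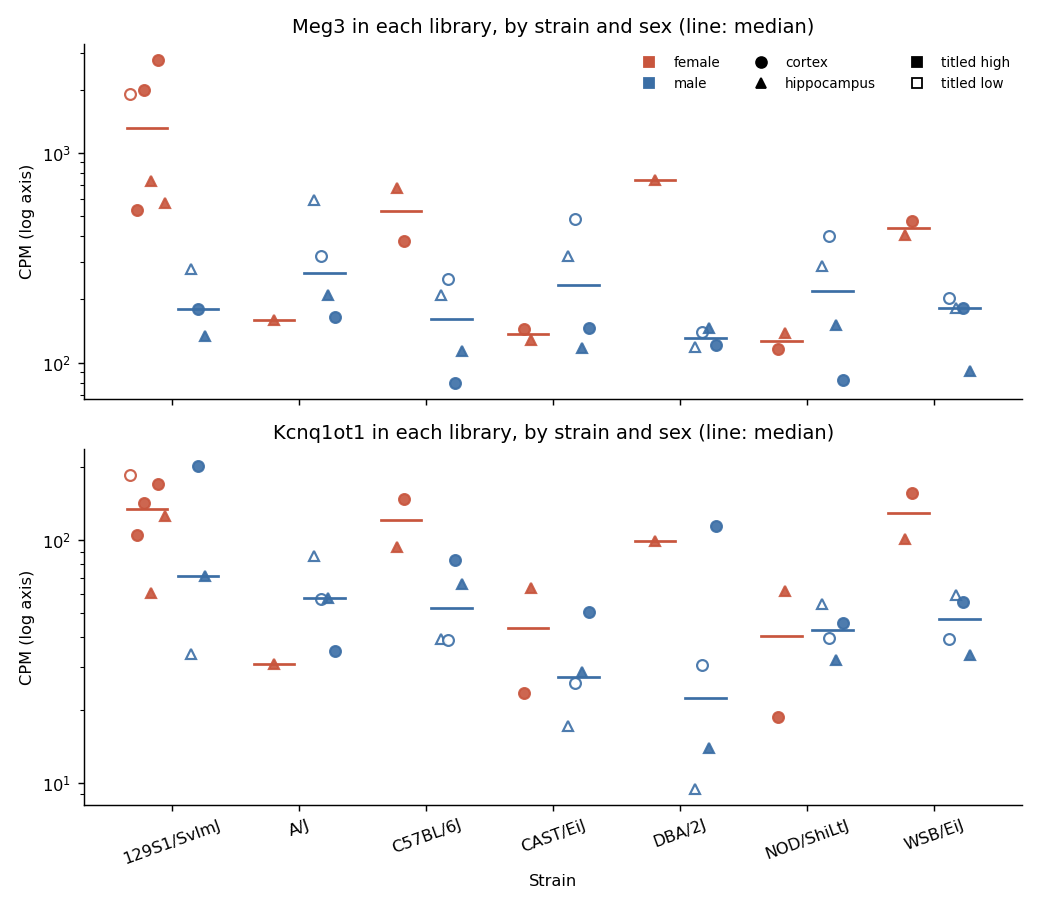
Meg3 (top) and Kcnq1ot1 (bottom) in CPM on a log axis in each library, by strain, with female libraries left and male right and a line at each median. Female 129S1/SvImJ libraries reach 2760 CPM of Meg3, while those of NOD/ShiLtJ, A/J and CAST/EiJ stay between 116 and 160 CPM.

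Within male mice, Meg3 was lower in libraries titled high than in those titled low. It ran from 79.9 to 209 CPM in the 14 titled high (median 139) and from 119 to 593 CPM in the 13 titled low (median 279). Mean Meg3 was lower under the tag high in 6 of 7 strains, DBA/2J being the exception, and ranges overlapped. The fitted difference, high minus low, was -1.07 on the log2 scale (SE 0.18, adjusted p = 4.03e-04 by edgeR), a 2.11-fold difference. Meg3 was 1 of 9 genes tested to pass, beside 1.06% of all genes called (0.77% lower under the tag high). It passed in all 16 alternatives run, with differences of -1.22 to -0.95 and adjusted p of 5.85e-06 to 0.0127.

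The other genes did not pass between the tags. Log2 differences were -0.99 (SE 0.52) for Snrpn, -0.73 (SE 0.36) for Rian, -0.67 (SE 0.55) for Snhg14, -0.65 (SE 0.23) for Peg3 and -1.65 (SE 1.46) for Mirg. They were 0.66 (SE 0.28) for Kcnq1ot1, 0.37 (SE 0.58) for Igf2 and 0.24 (SE 0.93) for Plagl1. The median over the 9 was -0.67, against 0.04 over all genes tested. Rian ran from 2.28 to 48.4 CPM under the tag high (median 12.6) and from 8.34 to 56.6 CPM under low (median 30.2), with a lower mean under high in 7 of 7 strains.

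Most neuronal markers were also higher under the tag low. Of 10, 9 had a higher median under the tag low, and their summed level ran from 635 to 1574 CPM (median 983) under low and from 333 to 1050 CPM (median 462) under high. Astrocyte markers had a mean log2(CPM + 1) of 6.72 ± 0.51 (SD, n = 13) under low and 5.72 ± 0.59 (SD, n = 14) under high. The endothelial mean was 9.35 ± 0.18 (SD, n = 13) under low and 9.74 ± 0.36 (SD, n = 14) under high, and the rRNA-like share was 18.6% ± 4.6 and 18.7% ± 3.9. With the neuronal mean as a covariate the difference in Meg3 was -1.17 (SE 0.24), as large as without it. The part of astrocytes in it was not tested.

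Between cortex and hippocampus none of the 9 genes passed (edgeR), while 4 had an unadjusted p under 0.05, and DESeq2 called 0. Only 0.0755% of all genes were called in this comparison. The 4 were Snrpn, with a log2 difference, cortex minus hippocampus, of 1.02 (SE 0.41, median 19.7 CPM in cortex and 9.91 in hippocampus), Meg3 with 0.83 (SE 0.32), Kcnq1ot1 with 0.58 (SE 0.26) and Peg3 with 0.56 (SE 0.23), each at an adjusted p of 0.669. Median Meg3 was 202 CPM in cortex and 195 CPM in hippocampus, and its fitted difference was -0.21 without 129S1/SvImJ and 0.18 (SE 0.29) with the neuronal mean as a covariate. Of the 10 neuronal markers, 7 had a higher median in cortex. Mean Snrpn was higher in cortex in 6 of 7 strains. Igf2 went the other way at -0.60 (SE 0.53), with a lower mean in cortex in 6 of 7 strains. The median over the 9 was 0.58, against -0.03 over all genes tested.

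Between origins none of the 9 genes passed either (edgeR), beside 0.749% of all genes called, while 2 had an unadjusted p under 0.05 and DESeq2 called 1, Igf2. Igf2, the growth factor of the group, ran from 0 to 11.0 CPM in the 12 wild-derived libraries (median 3.18, none detected in 3) and from 0 to 61.3 CPM in the 31 long-inbred libraries (median 11.2, none detected in 2). By strain the median was 1.81 CPM in WSB/EiJ, 3.18 in CAST/EiJ, 7.64 in DBA/2J, 8.13 in A/J, 13.8 in NOD/ShiLtJ, 14.8 in 129S1/SvImJ and 15.2 in C57BL/6J. The fitted difference, wild-derived minus long-inbred, was -2.03 (SE 0.64, adjusted p = 0.158 by edgeR). It ran from -2.27 to -1.78 over 17 alternatives, with adjusted p of 0.0166 to 0.546. Markers of vessel-associated fibroblasts, cells known to express Igf2, had a mean log2(CPM + 1) of 1.78 ± 0.36 (SD, n = 12) in wild-derived and 1.65 ± 0.55 (SD, n = 31) in long-inbred libraries. Of these 10 markers, 4 had a median of 0. Choroid plexus markers, 4 of 6 at a median of 0, had means of 0 to 1.88 in wild-derived libraries. In long-inbred libraries these means were 0 to 4.63. The part of either cell type in Igf2 was not tested. Meg3 was the other gene, at -0.98 (SE 0.38, adjusted p = 0.383 by edgeR), and in male libraries only its difference was 0.03 (SE 0.25). Of 10 neuronal markers, 9 had a higher median in wild-derived than in long-inbred libraries. Total counts were lower in wild-derived (median 4220948) than in long-inbred libraries (6541633).

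The interaction of region and sex, with 0.00343% of all genes called, and that of sex and origin, with 0.0206%, were passed by none of the 9 genes (edgeR), and DESeq2 called 0 in both. In each, 2 had an unadjusted p under 0.05, Meg3 and Rian. For sex by origin their terms were -1.67 (SE 0.58) and -1.91 (SE 0.81) on the log2 scale, and for region by sex 1.21 (SE 0.50) and 1.43 (SE 0.69).

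**Figure D4:**
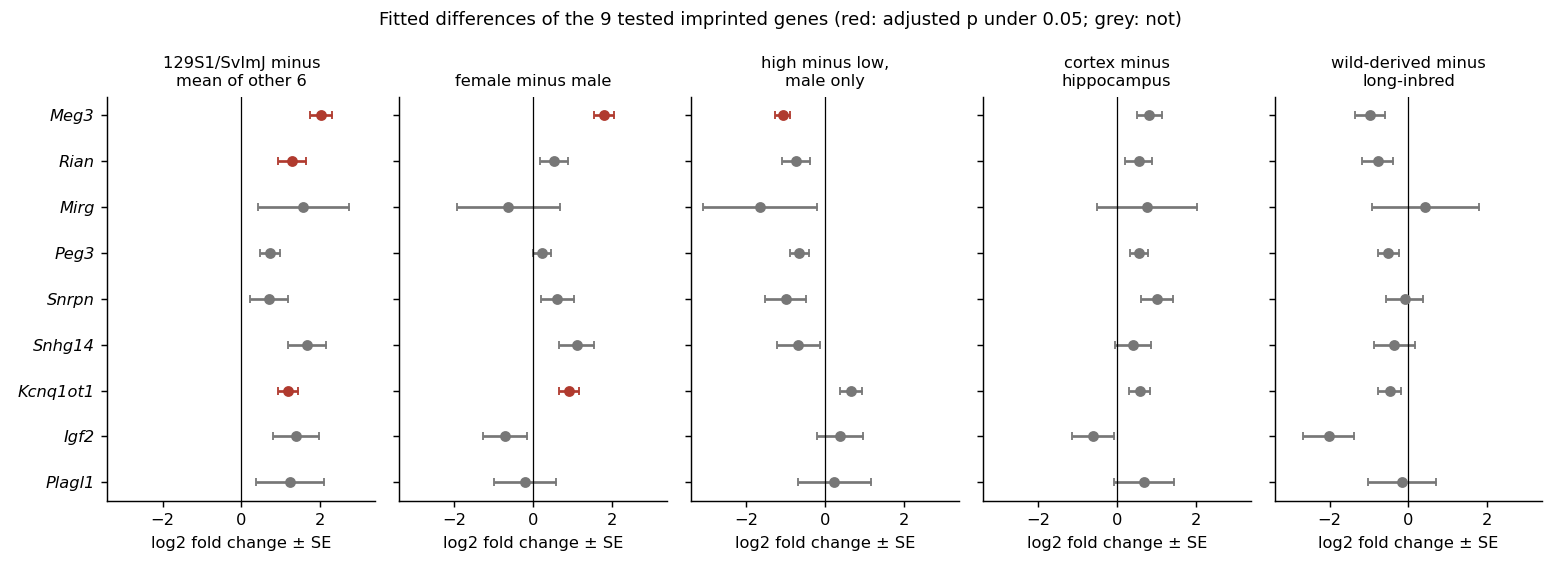
Fitted log2 differences of the 9 tested genes with their standard errors in 5 comparisons, in red where the adjusted p was under 0.05. Meg3 is red in the first 3 panels, at 2.02, 1.81 and -1.07, Kcnq1ot1 in the first 2 and Rian in the first.

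Rian, Peg3 and Snrpn were the members with the highest correlation with the neuronal markers over the 43 libraries. With the neuronal mean, Pearson r of log2(CPM + 1) was 0.68 for Rian (Spearman rho = 0.68), 0.65 for Peg3 (rho = 0.63) and 0.54 for Snrpn (rho = 0.62). The permutation p was 1e-05 for r of Rian and of Peg3, the smallest these permutations can give, and 1.4e-04 for Snrpn, and over 22 correlations these became 7.33e-05, 7.33e-05 and 7.48e-04. Permutation p of rho was 1e-05, 1e-05 and 3e-05. Without the 2 libraries farthest from the median neuronal mean, r was 0.61, 0.59 and 0.55. In female libraries r was 0.70, 0.77 and 0.88, and in male libraries 0.68, 0.57 and 0.44, the last at an adjusted permutation p of 0.116.

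Meg3 was related more loosely (r = 0.46, permutation p = 0.00209, adjusted 0.00657, rho = 0.38, p = 0.0107, adjusted 0.0392, with r = 0.44 once the 2 libraries farthest from the median neuronal mean were dropped). Its r was 0.78 in female and 0.35 in male libraries, the latter at an adjusted permutation p of 0.226. Mirg had r = 0.49 (adjusted permutation p = 0.00286) and rho = 0.36 (0.0559), and Snhg14 r = 0.40 (0.0167) and rho = 0.35 (0.0638). For Plagl1 r was 0.22, for Igf2 0.08 and for Kcnq1ot1 -0.10, with permutation p of 0.158, 0.599 and 0.505. In male libraries Kcnq1ot1 fell as the neuronal mean rose (r = -0.56, permutation p = 0.0021, adjusted 0.0154, rho = -0.50, adjusted 0.0538, and -0.45 for r once the 2 farthest were dropped), and in female libraries its r was 0.54 (adjusted permutation p = 0.0543). Neuronal RNA shares a library, and its depth, with every gene it is set against.

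**Figure D5:**
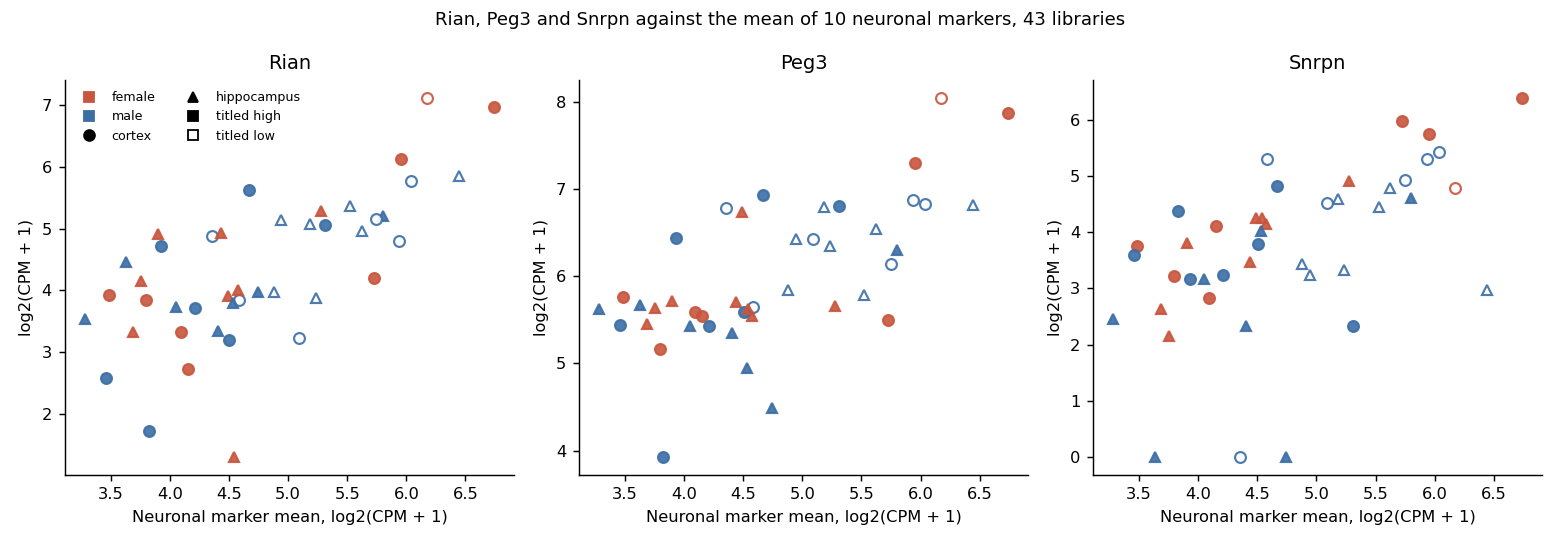
Log2(CPM + 1) of Rian, Peg3 and Snrpn against the mean log2(CPM + 1) of 10 neuronal markers, 1 point per library. All 3 rise with the neuronal mean, with r of 0.68, 0.65 and 0.54, and 3 libraries have no count of Snrpn.

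Genes of 1 imprinted cluster were loosely related over the libraries. Meg3 and Rian, neighbours on chromosome 12, had r = 0.44 over 43 libraries (permutation p = 0.00349, adjusted 0.0096) but rho = 0.29 (p = 0.0615, adjusted 0.123), with r = 0.74 in female libraries (adjusted permutation p = 0.00396) and 0.11 in male libraries (0.82). Meg3 and Mirg had r = 0.15 (permutation p = 0.337), and Rian and Mirg r = 0.42 (permutation p = 0.0055, adjusted 0.0134) with rho = 0.28 (adjusted 0.128). Snrpn and Snhg14 had r = 0.23 and rho = 0.29, at permutation p of 0.136 and 0.0575. In female libraries their r was 0.60 and rho 0.63, at adjusted permutation p of 0.0337 and 0.0259. That r became 0.35 once the 2 farthest libraries were dropped, and in male libraries r was -0.02. No value could be had for Igf2 and H19.

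Of 10649 genes with a mean of at least 5 CPM, those most like Meg3 over the 43 libraries were Chd3 (r = 0.87), Trim44 (0.85) and Snhg11 (0.85). Those most like Rian were Peg3 (0.76), Csmd1 (0.69) and Adcy1 (0.69), and those most like Peg3 were Rian (0.76), Cadps (0.68) and Grin2b (0.68). Kcnq1ot1 was most like Neat1 (0.80), Malat1 (0.73) and Srrm2 (0.72), the first 2 being nuclear noncoding RNAs. For Snrpn they were Kcnq3 (0.76), AI593442 (0.69) and Pcnx2 (0.67), and for Snhg14 Pcdh9 (0.71), Rasgrf1 (0.69) and Spop (0.63), Rasgrf1 being itself imprinted. Igf2 was most like Gfap (0.63), an astrocyte marker, and Maged2 (0.63). The sparse genes Mirg and Plagl1 reached at most 0.57 (Unc79) and 0.56 (Rfng). These likenesses describe libraries that share depth and composition.

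Some other imprinted genes passed edgeR's test, in counts to be read beside the share of all genes called. Of 54 listed, 50 were tested, and the strain test was passed by Cd81, which encodes a tetraspanin (adjusted p = 0.00539), and Ppp1r9a (0.0282), by edgeR, beside the 2.68% above. Cd81 was lower in 129S1/SvImJ by 0.88 on the log2 scale (SE 0.18), at 47.9 to 212 CPM against 154 to 443 CPM in the other strains. Zfp264 and Nespas passed as higher there, on few libraries: they had no count in 5 and in 7 of 9 libraries of 129S1/SvImJ, and in 30 and 32 of the other 34. With Cd81 they made 3 of 50 called in 129S1/SvImJ, beside 1.46% of all genes. Kcnq1, the gene that Kcnq1ot1 overlaps, was lower in WSB/EiJ by 3.94 (SE 0.89, adjusted p = 0.00541 by edgeR), having no count in 5 of 6 libraries and 5.23 CPM in the other, against 0.471 to 39.1 CPM in the other 6 strains. Kcnq1ot1 itself ran from 33.7 to 157 CPM in WSB/EiJ and did not pass there (0.35, SE 0.32). Zrsr1 was higher in WSB/EiJ (0.87, SE 0.25, adjusted p = 0.0393 by edgeR), where 2 of 50 were called beside 2.41% of all genes. It was also higher in female mice (0.78, SE 0.19, adjusted p = 0.00568 by edgeR), the only 1 of 50 that edgeR called by sex, beside 2.85% of all genes. DESeq2 called 6 by sex and 5 by strain, and for single strains 2 in 129S1/SvImJ, 3 in WSB/EiJ and 4 in C57BL/6J, in which last strain edgeR called 0 of 50 and 8 had an unadjusted p under 0.05. None passed by region, origin or title tag, where 49 were tested (edgeR), with 4, 9 and 8 at an unadjusted p under 0.05 and 0, 0 and 2 called by DESeq2. The shares of all genes called by edgeR in these 3 comparisons were 0.0755%, 0.749% and 1.06%. The median difference by sex was 0.12, against 0.53 for the 9 genes above. The calls of Ppp1r9a by strain, Nespas in 129S1/SvImJ and Zrsr1 in WSB/EiJ lie near the threshold. They are uncertain, given the false calls on simulated data.

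Of 10 factors that keep imprints, such as the methyltransferase Dnmt1 and the zinc finger protein Zfp57, none passed by strain, region, title tag, sex or origin (edgeR). Over all genes the shares called were 2.68%, 0.0755%, 1.06%, 2.85% and 0.749% in that order, from which 10 genes are too few to show a departure. Unadjusted p was under 0.05 for 0, 0, 1, 3 and 0 of the 10 factors, and DESeq2 called 0 in each. A list of 11 genes held receptors and binding proteins of Igf2, and proteins that bind its mRNA. Of these, Insr and Igfbp3 passed by strain, with adjusted p of 9.26e-05 and 9.14e-04 (edgeR), beside 2.68% of all genes. Insr, the insulin receptor, was higher in WSB/EiJ by 1.04 (SE 0.16), at 381 to 632 CPM against 105 to 352 CPM in the other strains, and Igf1r, which binds Igf2, by 0.50 (SE 0.13). Insr was also higher in wild-derived libraries by 0.68 (SE 0.15, adjusted p = 0.00745 by edgeR) and lower in 129S1/SvImJ, at -0.62 (SE 0.16, adjusted p = 0.0237 by edgeR). In CAST/EiJ, the other wild-derived strain, Insr ran from 172 to 283 CPM, within the long-inbred range of 105 to 352 CPM. Igfbp3, a binding protein, was higher in DBA/2J by 3.66 (SE 0.67, adjusted p = 9.21e-04 by edgeR) and lower in cortex than in hippocampus, at -3.03 (SE 0.67, adjusted p = 0.0324 by edgeR), and DESeq2 called neither. It ran from 0.0911 to 527 CPM in female libraries (median 4.73) and from 0 to 82.8 CPM in male libraries (median 5.86). How far single libraries carry these Igfbp3 calls was not tested. None of the 11 passed by sex or title tag (edgeR), beside 2.85% and 1.06% of all genes. Of the 11, 4 and 1 had an unadjusted p under 0.05, and DESeq2 called 1 and 0. Igf2 itself was 0 to 10.5 CPM in WSB/EiJ, with no count in 3 of 6 libraries.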

How the data were processed

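RNA-seq of sorted brain endothelial cells was measured in 43 libraries. The authors deposited raw read counts per gene; the submitters' processing notes name HISAT2 2.1.0, SAMtools 1.9, featureCounts from Subread 1.4.4 and the mm10 build, and the strand setting is not given in the sources used here. Libraries were grouped by the strain, sex, region and tag in their labels. From the deposited counts, CPM with TMM factors were computed, and every gene that reached 0.5 CPM in 1 library or more went into the tests of edgeR 4.0.16 in R 4.3.3 (quasi-likelihood test, trended dispersion, Benjamini-Hochberg adjusted p under 0.05, two-sided). That left 29120 genes, or 27529 in male mice. All comparisons used no covariate, apart from the interactions. DESeq2 1.42.0 and other settings were alternatives; where a covariate was fitted, genes were dropped if any fitted count passed 5 times their highest observed count, since those fits could not be completed. On simulated data the test made more false calls than its nominal share in several comparisons, most for strain. Correlations used log2(CPM + 1) and 100000 permutations, two-sided (Python 3.11.15, numpy 2.4.6, scipy 1.17.1, pandas 2.3.3, matplotlib 3.10.9). The members and gene lists, and the form of the edgeR test, were chosen with earlier results of these data known. The text names the 10 members in every comparison, genes of 3 lists past the threshold, and up to 3 genes most like each member among those with a mean of at least 5 CPM, of which 1 for Igf2 is not reported here. Standard errors and p-values rest on the spread between libraries, while the limits given for H19 cover counting error only. Total counts per library were 1626534 to 49372356, at which 3 counts amount to 1.84 to 0.0537 CPM. The rRNA-like share as a covariate, the division of female libraries at 5% and the fits in sets of strains were added after seeing the data.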

Additional observations from a re-analysis of the deposited data

Results flagged for a closer look

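In 4 of 62 groups of 5, 6 or 9 libraries tested on log2(CPM + 1), 1 library stood apart from the others of its strain by Dixon's test, where chance alone gives about 1 in 20. Meg3 was 739.3 CPM in the DBA/2J female hippocampus library titled high, the only female library of that strain, against 119 to 146 CPM in the other 4. Rian was 30.16 CPM in a CAST/EiJ male hippocampus library titled low, against 8.19 to 13.4 CPM in the other 5. Rian was 1.462 CPM in a WSB/EiJ female hippocampus library titled high, against 14.7 to 40.4 CPM in the other 5. Mirg was 6.554 CPM in a NOD/ShiLtJ male hippocampus library titled low, against 0 to 0.827 CPM in the other 5. The neuronal means of these 4 libraries were 4.44, 5.62, 4.54 and 5.185, and the reasons were not tested.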

How the results depend on the processing

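No paired analysis was possible because the titles do not name the mouse, so libraries of the same animal could not be matched. The lower Meg3 in male libraries titled high kept its direction and its call in all 16 alternatives run. For the other calls the values that moved are given here, and the cause was not tested. With edgeR's default deviances the genes called were 13525 by strain (781 as reported), 5538 for 129S1/SvImJ (426), 8023 by region (22), 8327 by title tag (293), 10473 by sex (830), 6712 by origin (218), 956 for region by sex (1) and 380 for sex by origin (6), and the members called were 4 by strain, 5 for 129S1/SvImJ, 1 by region, 2 by title tag and 2 by origin. DESeq2 called 1315 genes by strain, 815 for 129S1/SvImJ, 55 by region, 640 by title tag, 395 by origin, 25 for region by sex and 21 for sex by origin, with 1 member by sex and 1 by origin. DESeq2's size factors gave 1 member by sex and 0 genes for sex by origin. With the rRNA-like share as a covariate, members called were 0 by strain, 0 for 129S1/SvImJ and 0 by sex, genes called were 81 for 129S1/SvImJ, 59 by sex and 0 for region by sex, and the sex difference was -0.17 for Meg3 and -0.60 for Kcnq1ot1. In male libraries only, genes called were 474 by strain, 77 for 129S1/SvImJ and 123 by origin, members called were 0 by strain and 0 for 129S1/SvImJ, the 129S1/SvImJ difference was -0.024 for Meg3, -0.88 for Rian and -0.28 for Peg3, and the origin difference of Meg3 was 0.026. With sex and region as covariates, members called were 0 by strain and 1 for 129S1/SvImJ, where 123 genes were called. With strain and sex as covariates 45 genes were called by region, and 60 with strain, sex and title tag as a block. With strain and region as covariates 550 genes were called by title tag and 1 member by sex. With the neuronal mean as a covariate 40 genes were called by region, 28 by title tag, 0 for region by sex and 0 for sex by origin. In libraries titled high only, 448 genes and 1 member were called by sex. In A/J, CAST/EiJ and NOD/ShiLtJ only, 17 genes and 0 members were called by sex, with differences of -0.99 for Meg3 and -0.16 for Kcnq1ot1. Leaving out 1 strain gave 11 (without NOD/ShiLtJ) to 28 genes by region and -0.21 for Meg3 without 129S1/SvImJ. By title tag it gave 195 genes without 129S1/SvImJ, 132 without A/J, 148 without C57BL/6J, 124 without CAST/EiJ and 188 without NOD/ShiLtJ. By sex it gave 532 genes and 0 members without 129S1/SvImJ, 515 genes and 1 member without DBA/2J, and 1 member without C57BL/6J or without WSB/EiJ. With no filter 2 genes were called for region by sex and 10 for sex by origin, and with 0.5 CPM required in 5 libraries 0 and 0. Without WSB/EiJ replicate 4, the library with the highest rRNA-like share, 0 were called for sex by origin. Leaving out each A/J or DBA/2J library in turn gave 715 to 837 genes and 2 to 3 members by strain, and 309 to 499 genes and 2 to 4 members for 129S1/SvImJ. The correlation of Plagl1 with the rRNA-like share, near 0, was -0.0286 without TMM. H19 is bounded only by the limit of 3 counts, and the part of depth in the zeros of Mirg, Plagl1 and Igf2 was not tested.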
